A study of Rattus norvegicus with 9 samples.

Results

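The IL-6 family of cytokines signals through receptors that contain the shared subunit gp130, through the JAK kinases and through the transcription factor Stat3, which is restrained by Socs3. Here, 10 genes of this pathway were looked up by symbol in a table of rat liver arrays: the receptor genes Il6r, Il6st, Osmr, Lifr and Lepr, the kinase genes Jak1, Jak2 and Tyk2, and Stat3 and Socs3. Of these, 9 genes were found, with 21 probe sets, among 14378 genes and 31042 probe sets in all. Osmr, the oncostatin M receptor, had no row under its symbol and was not analysed here. Every probe set of a gene was examined, and the brightest one on average stands for the gene.

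Livers came from male Sprague–Dawley rats in 3 groups of 3, with 1 Affymetrix rat expression array per rat. The vehicle group received no CCl4. The CCl4 group was given carbon tetrachloride, a hepatotoxin that causes liver fibrosis, as repeated intraperitoneal injections in olive oil. The CCl4+Rot group was given the same toxin together with rottlerin, an activator of the large-conductance calcium-activated potassium (BK) channel, which was started after the first CCl4 injections. All rats of the CCl4+Rot group therefore also carried the toxin, there was no group with rottlerin alone, and neither the age of the rats nor the content of the vehicle is given in the sources used here. Each array was made from whole liver, so fewer cells of a type and less RNA per cell cannot be told apart in any value below.

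As background, binding of interleukin-6 to its receptor brings together gp130 chains, the JAK kinases bound to them phosphorylate Stat3, and Stat3 enters the nucleus and switches on target genes. Socs3 is one of these targets, and it shuts the signal off by binding gp130 and the JAKs. In liver this pathway drives the acute phase response of hepatocytes and takes part in regeneration after injury. Phosphorylation is the active state of the pathway, and arrays measure only RNA.

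All values are log2 signals as deposited, and a change is a difference in log2 signal between group means. The members lay in a data set with few differences that passed the test (limma, Benjamini-Hochberg adjusted p below 0.05 and at least 1.5-fold): 0 of 31042 probe sets (0%) between CCl4 and vehicle, 1 (0.00322%) between CCl4+Rot and CCl4, and 8 (0.0258%) between CCl4+Rot and vehicle. No probe set of the 9 genes was called in any of the 3 comparisons. With 3 rats against 3, an exact two-sided permutation test of a single gene cannot go below 0.1. The array of CCl4 replicate 3 stood apart from the others, with 12714 probe sets called present against 15550 to 16849 on the other 8 arrays and a median log2 signal of 7.81 against 6.79 to 7.01, so values without it are given beside the results that it moves most. The labelled tissue matched its markers, since all 9 measured hepatocyte genes, albumin among them, were called present on all 9 arrays. Of the 21 probe sets of the members, 11 were called present on all 9 arrays and 4 on none.

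At the level of single genes, Stat3 and Il6r differed most clearly between the groups, and in opposite directions. Between CCl4 and vehicle, 2 of the 9 genes had groups that did not overlap, Stat3 (higher in CCl4) and Il6r (lower), against 21% of all genes, and the same 2 had an unadjusted limma p below 0.05, against 13.5%. Between CCl4+Rot and CCl4, 2 of 9 did not overlap, Stat3 (lower in CCl4+Rot) and Jak1 (higher), against 11.2% of all genes. In that comparison the unadjusted p was below 0.05 for Stat3 and for Lifr, which was not detected on any array, against 5.5%. Between CCl4+Rot and vehicle, Stat3 (higher) and Il6r (lower) did not overlap, against 24.7%, and only Il6r of the 9 genes had an unadjusted p below 0.05, against 9.79%. Each share rests on 1 or 2 of 9 genes, too few to set the family apart from these backgrounds. The median change of the 9 genes was -0.12, 0.18 and 0.06 in the 3 comparisons in this order, beside 0.13, -0.05 and 0.03 over all genes. Over the 8 genes without the undetected Lifr, the first 2 medians were -0.10 and 0.14, and they were 0.09 and 0.07 without CCl4 replicate 3. The comparisons share arrays, so a high or low CCl4 array moves the first 2 in opposite directions.

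**Figure D1:**
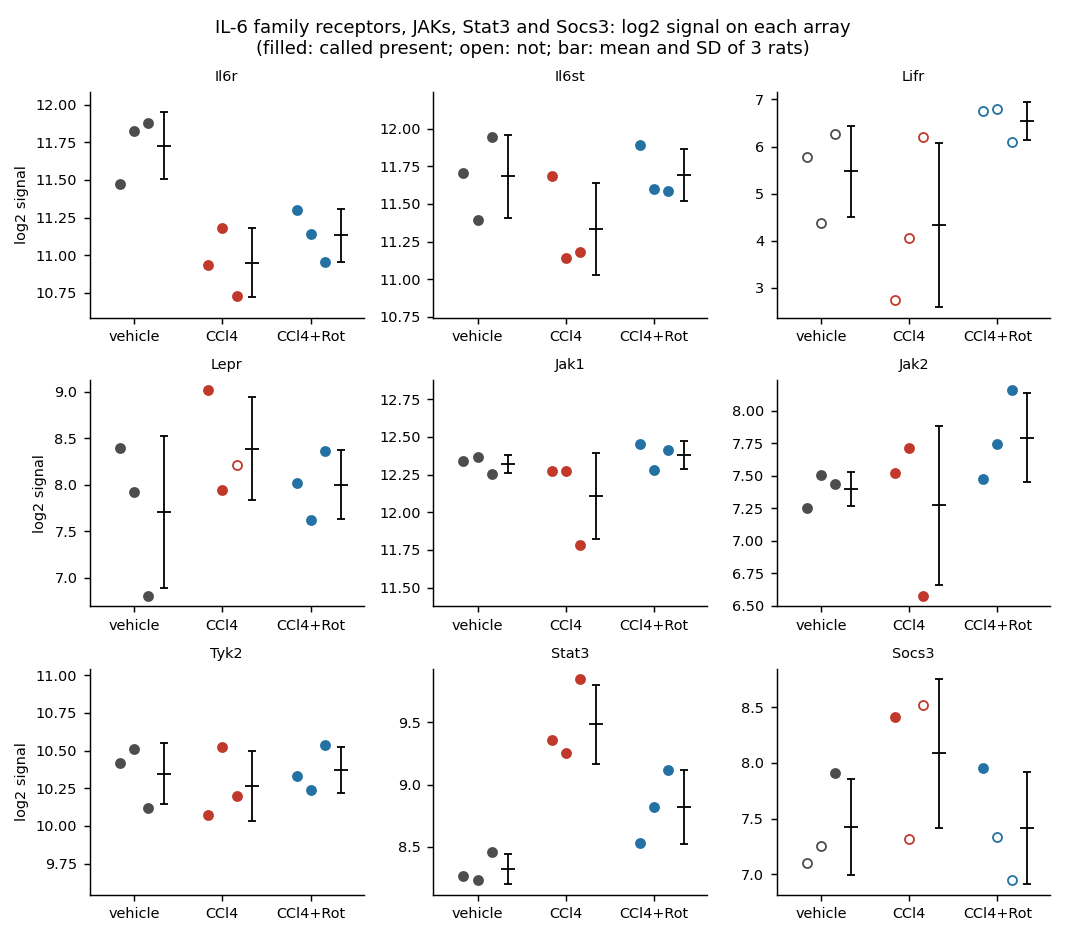
Log2 signal of the 9 measured genes on each array, by group; each point is 1 rat, filled where the probe set was called present and open where it was not, and the bar gives the mean and SD of 3 rats. Stat3 is highest in the 3 CCl4 rats (9.26 to 9.85), Il6r is highest in the 3 vehicle rats (11.47 to 11.88), and the groups overlap for Il6st, Lepr, Jak2, Tyk2 and Socs3.

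Stat3 is the transcription factor on which the receptors converge. The table holds 2 probe sets for it, both on chromosome 10 and both called present on all 9 arrays. On the brighter of them, 1371781_at, the log2 signal was 8.27, 8.23 and 8.46 in the vehicle rats, 9.35, 9.26 and 9.85 in the CCl4 rats, and 8.53, 8.82 and 9.12 in the CCl4+Rot rats. The 3 groups did not overlap on this probe set, with CCl4+Rot between the others. The mean was 8.32 ± 0.121 (SD, n = 3) in the vehicle rats, 9.49 ± 0.318 in the CCl4 rats, and 8.82 ± 0.297 in the CCl4+Rot rats. CCl4 was 2.24-fold above vehicle (log2 change 1.17, SE 0.231), yet with an adjusted p of 0.202 (limma) this was not called. CCl4+Rot was 0.66 below CCl4 on the log2 scale (log2 change -0.66, SE 0.231, 95% interval -1.20 to -0.13), with an adjusted p of 0.724. Against vehicle, CCl4+Rot was 0.50 higher (SE 0.231, adjusted p = 0.640).

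The second Stat3 probe set, 1370224_at, gave the same order for CCl4 but another position for CCl4+Rot. Its log2 signal was 8.55, 8.81 and 8.42 in the vehicle rats, 9.39, 9.10 and 9.39 in the CCl4 rats, and 8.33, 8.64 and 8.73 in the CCl4+Rot rats. All 3 CCl4 rats thus lay above all 6 other rats, and the vehicle and CCl4+Rot rats overlapped. The change was 0.70 between CCl4 and vehicle (SE 0.192, adjusted p = 0.252, limma), -0.73 between CCl4+Rot and CCl4 (SE 0.192, adjusted p = 0.638) and -0.03 between CCl4+Rot and vehicle (95% interval -0.48 to 0.42). The brighter probe set therefore placed CCl4+Rot between the other groups and the dimmer one placed it at the vehicle level. Over the 9 arrays the difference between CCl4 and vehicle ran from 0.99 to 1.28 on the brighter probe set and from 0.61 to 0.81 on the dimmer one when each array was left out in turn. Without CCl4 replicate 3, the brighter probe set gave 0.99 for CCl4 against vehicle and -0.48 for CCl4+Rot against CCl4. Separately from the arrays, the study also measured Stat3 mRNA in fibrotic rats. By western blot of liver, it reports that rottlerin lowered total and phosphorylated STAT3 and phosphorylated JAK2 in rats given CCl4. Those blots measure protein, which the arrays do not.

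Il6r, the ligand-binding receptor for interleukin-6, is read by 1 probe set on chromosome 2, which was called present on all arrays. Its log2 signal was 11.47, 11.83 and 11.88 in the vehicle rats, 10.94, 11.18 and 10.73 in the CCl4 rats, and 11.30, 11.14 and 10.95 in the CCl4+Rot rats. Every rat that received CCl4, with or without rottlerin, lay below every vehicle rat, and the CCl4 and CCl4+Rot rats overlapped. The mean was 11.73 ± 0.221 (SD, n = 3), 10.95 ± 0.227 and 11.13 ± 0.174 in the 3 groups. CCl4 was 1.71-fold below vehicle (log2 change -0.78, SE 0.201, adjusted p = 0.249, limma) and CCl4+Rot 1.51-fold below vehicle (log2 change -0.59, SE 0.201, adjusted p = 0.460). Between CCl4+Rot and CCl4 the change was 0.18, with a 95% interval from -0.29 to 0.65 and an adjusted p of 0.833, and it was 0.07 without CCl4 replicate 3. The change between CCl4 and vehicle lay between -0.90 and -0.67 with each array left out, and was -0.67 without CCl4 replicate 3.

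The calls on Stat3 and Il6r depended on how the spread between arrays was estimated. With limma's trend and robust estimation, 348 probe sets (1.12%) passed between CCl4 and vehicle, and among them were Stat3 (1371781_at, adjusted p = 0.0216) and Il6r (adjusted p = 0.0401). The second Stat3 probe set was not called in that fit (adjusted p = 0.0815). With 1 array left out in turn, the call on Stat3 held in 6 of 9 fits and that on Il6r in 3 of 9. With all arrays, 1 probe set (0.00322%) passed between CCl4+Rot and CCl4 and 241 (0.776%) between CCl4+Rot and vehicle, with no probe set of the members in either. The methods' t-test, which the study names for its data in general and not for the arrays, was also run on each probe set, unadjusted and with the 1.5-fold threshold. Between CCl4 and vehicle it took both Stat3 probe sets and Il6r, where it took 5.71% of all probe sets. Between CCl4+Rot and CCl4 it took the dimmer Stat3 probe set, at 1.66-fold, and no other of the 21, against 2.74%. Between CCl4+Rot and vehicle it took Il6r alone of the 21, against 6.85%.

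**Figure D2:**
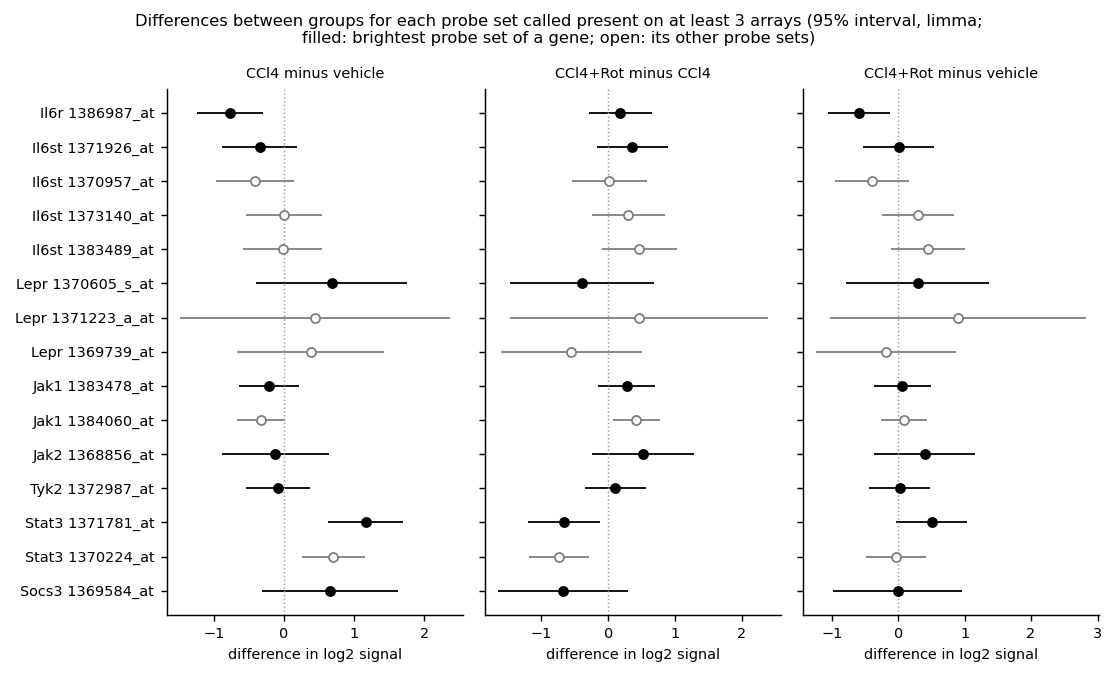
Differences in log2 signal between groups for the 15 probe sets of the members called present on at least 3 arrays, with 95% intervals from limma; filled points are the brightest probe set of a gene and open points its other probe sets. Both Stat3 probe sets lie above 0 for CCl4 minus vehicle (1.17 and 0.70) and below 0 for CCl4+Rot minus CCl4 (-0.66 and -0.73), and Il6r lies below 0 against vehicle in both treated groups.

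Il6st encodes gp130, the signal-transducing subunit that the receptors of the IL-6 family share, and 4 probe sets on chromosome 2 read it, each called present on all 9 arrays. On the brightest, 1371926_at, the log2 signal was 11.71, 11.39 and 11.95 in the vehicle rats, 11.68, 11.14 and 11.18 in the CCl4 rats, and 11.89, 11.60 and 11.59 in the CCl4+Rot rats. The groups overlapped in every comparison. The changes were -0.35 between CCl4 and vehicle, 0.36 between CCl4+Rot and CCl4 and 0.01 between CCl4+Rot and vehicle (SE 0.229 each), with adjusted p of 0.557, 0.765 and 0.998 (limma).

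The other 3 Il6st probe sets had the same sign as the brightest in the first 2 comparisons, in part through very small changes. In the third, 1370957_at was lower in CCl4+Rot than in vehicle (-0.40). There 1373140_at and 1383489_at were higher (0.30 and 0.45), beside 0.01 on the brightest. On 1370957_at the CCl4+Rot rats (11.01, 11.10 and 11.09) lay below all vehicle rats (11.61, 11.28 and 11.51), a change of -0.40. CCl4 (11.39, 11.22 and 10.55) overlapped both, with changes of -0.41 from vehicle and 0.02 for CCl4+Rot against CCl4, which were -0.16 and -0.24 without CCl4 replicate 3. On 1383489_at the CCl4+Rot rats (9.76, 9.54 and 9.77) lay above all CCl4 rats (9.41, 9.02 and 9.23), a change of 0.47, and CCl4 and vehicle had nearly the same mean (9.22 and 9.24). On 1373140_at all groups overlapped, with changes of -0.00, 0.30 and 0.30, and the first 2 were 0.11 and 0.19 without CCl4 replicate 3. Across the arrays the correlation between these probe sets ran from -0.06 to 0.90.

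**Figure D3:**
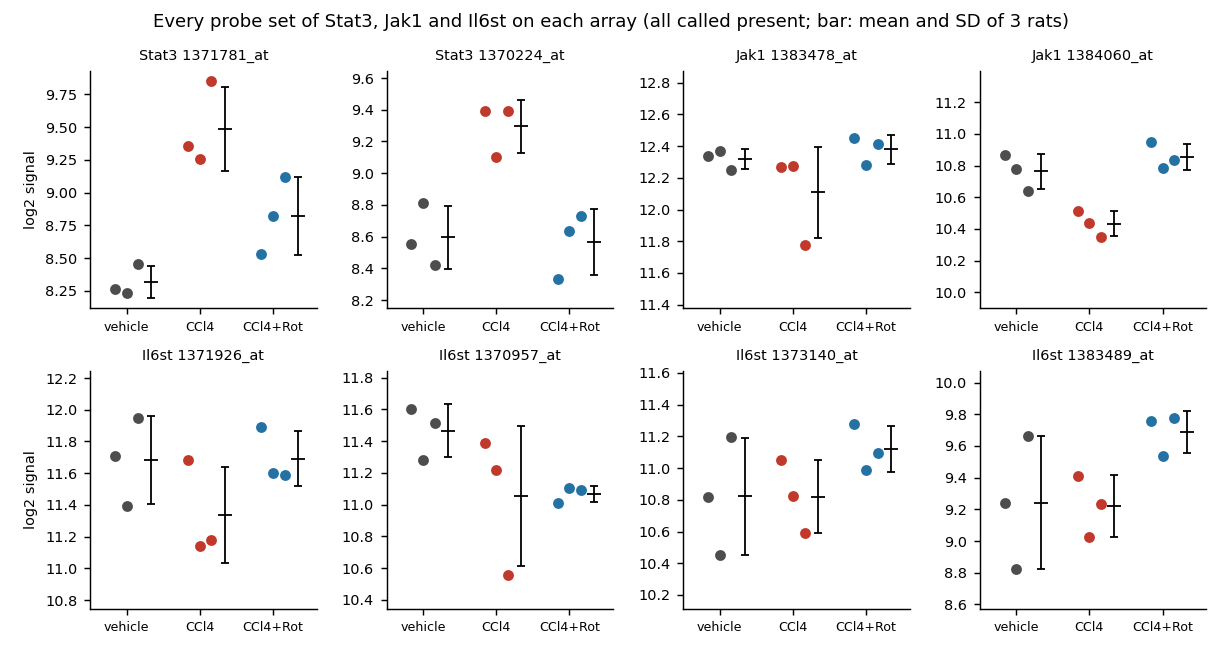
Log2 signal of every probe set of Stat3, Jak1 and Il6st on each array; points are single rats, all called present, and the bar gives the mean and SD of 3 rats. The 2 Stat3 probe sets agree that the CCl4 rats are highest and differ on where CCl4+Rot lies (means 8.82 and 8.56, beside 8.32 and 8.59 in vehicle), and the dimmer Jak1 probe set has its CCl4 rats (10.35 to 10.51) below all others.

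The remaining receptors were dim. Lepr, the leptin receptor, is a relative of gp130 that signals without it over the same JAK and STAT route, and it is known for several splice forms. It has 7 probe sets on chromosome 5, of which 1 was called present on 8 arrays, 1 on 4, 1 on 3, 2 on 1 and 2 on none. On the brightest, 1370605_s_at, the log2 signal was 8.39, 7.93 and 6.80 in the vehicle rats, 9.01, 7.94 and 8.21 in the CCl4 rats, and 8.02, 7.62 and 8.36 in the CCl4+Rot rats. The groups overlapped and the vehicle rats were spread widely, with an SD of 0.815. The changes were 0.68, -0.39 and 0.29 (SE 0.462, adjusted p = 0.568, 0.847 and 0.957, limma), with a 95% interval from -0.39 to 1.76 for CCl4 against vehicle. The first was 0.23 without vehicle replicate 5 and 0.37 without CCl4 replicate 1, and the second was -0.08 without CCl4 replicate 1. The next probe sets gave changes of 0.44, 0.46 and 0.90 on 1371223_a_at (SE 0.825) and of 0.38, -0.56 and -0.18 on 1369739_at (SE 0.452), so the direction between CCl4+Rot and CCl4 differed among them. The other 4 had at most 1 present call and are not read. Lifr, the receptor subunit for leukaemia inhibitory factor, had 2 probe sets on chromosome 2, and neither was called present on any array. No change is given for it.

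Among the kinases, only Jak1 had a probe set on which the CCl4 rats lay apart from both other groups. Jak1, a kinase bound to gp130, has 2 probe sets on chromosome 5, both called present on all arrays. On the dimmer one, 1384060_at, the log2 signal was 10.87, 10.78 and 10.64 in the vehicle rats, 10.51, 10.44 and 10.35 in the CCl4 rats, and 10.95, 10.78 and 10.83 in the CCl4+Rot rats. All CCl4 rats lay below all others. The change was -0.33 against vehicle (SE 0.149, adjusted p = 0.423, limma) and 0.42 for CCl4+Rot against CCl4 (SE 0.149, adjusted p = 0.724), and these were -0.29 and 0.38 without CCl4 replicate 3. Each was below 1.5-fold.

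On the brighter Jak1 probe set, 1383478_at, the log2 signal was 12.34, 12.37 and 12.25 in the vehicle rats, 12.27, 12.27 and 11.78 in the CCl4 rats, and 12.45, 12.28 and 12.41 in the CCl4+Rot rats. Here the CCl4 mean (12.11 ± 0.284) was pulled down by replicate 3 alone, and the lowest CCl4+Rot rat equalled the next CCl4 rats to within 0.01. The changes were -0.21 between CCl4 and vehicle, 0.27 between CCl4+Rot and CCl4 and 0.06 between CCl4+Rot and vehicle (SE 0.184). Without CCl4 replicate 3 they were -0.05, 0.11 and 0.06.

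Jak2, a kinase that the leptin receptor and several others use, and Tyk2 had 1 probe set each, called present on all arrays. The log2 signal of Jak2, on chromosome 1, was 7.25, 7.50 and 7.43 in the vehicle rats, 7.53, 7.72 and 6.58 in the CCl4 rats, and 7.47, 7.75 and 8.16 in the CCl4+Rot rats. All groups overlapped, and CCl4 replicate 3 set the low CCl4 mean. The changes were -0.12, 0.52 and 0.40 (SE 0.327, adjusted p = 0.890, 0.765 and 0.865, limma), and without that array the first turned to 0.22 and the second was 0.17. Tyk2, whose chromosome the table does not list, gave 10.42, 10.51 and 10.12 in the vehicle rats, 10.07, 10.52 and 10.20 in the CCl4 rats, and 10.33, 10.24 and 10.54 in the CCl4+Rot rats. Its changes of -0.08, 0.10 and 0.02 were smaller than the SD within each group, and the 95% interval for CCl4 against vehicle ran from -0.54 to 0.37. Without CCl4 replicate 3, the first 2 were -0.05 and 0.07.

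Socs3, the feedback inhibitor of gp130 signalling, was near the limit of detection. Its probe set on chromosome 10 was called present on 3 arrays, 1 in each group. The log2 signal was 7.11, 7.25 and 7.91 in the vehicle rats, 8.41, 7.32 and 8.52 in the CCl4 rats, and 7.95, 7.34 and 6.95 in the CCl4+Rot rats. In the CCl4 group, 2 rats lay above all others and the third lay among the vehicle rats. The changes were 0.66, -0.67 and -0.01 (SE 0.416, adjusted p = 0.542, 0.765 and 0.999, limma), and all groups overlapped. Without CCl4 replicate 3 they were 0.44, -0.45 and -0.01, and without CCl4 replicate 2, the lowest of its group, the first 2 were 1.05 and -1.06. The mean of Socs3 was thus highest in CCl4, as on both Stat3 probe sets, without a difference beyond the spread between rats. Its vehicle and CCl4+Rot means were nearly equal, as on the dimmer Stat3 probe set and unlike on the brighter one. The Pearson correlation of Socs3 with the brighter Stat3 probe set was 0.51 over all arrays, and 0.22 without CCl4 replicate 3.

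Because Stat3 and Socs3 had their highest means in the same group, the sequence before each gene was read for the motif TTCNNNGAA, the palindromic core that STAT proteins are known to bind. Windows of 250 bases before the annotated start were taken from RefSeq on build GRCr8, and the motif reads the same on both strands. It was found in 7.67% of the 33469 windows searched. None of the 8 members with an entry held it, namely Il6r, Il6st, Osmr, Lifr, Lepr, Jak2, Stat3 and Socs3, while Jak1 and Tyk2 had no entry. Of the other pathway genes listed below, 8 of 45 with an entry held it: Socs1, Cish, Bcl2l1, Icam1, Fga, Fgb, Hamp and Serpina3n. A gene was counted if any of its windows held the motif, while the 7.67% counts single windows, so these shares are not like for like. Stat3 and Socs3 are shown because both had their highest mean in CCl4, at chr10:86363360-86363609 and chr10:103694769-103695018, both on the minus strand. Lepr also had its highest mean in CCl4 on its brightest probe set, and its sequence, without the motif, is not shown. The groups overlapped for Socs3 and for Lepr, so this order of means does not set Stat3 and Socs3 apart. Cish, a SOCS family gene at chr8:116850719-116850968 on the plus strand, is shown for comparison. Its window is 1 of only 2 with 4 or more matches, which are in capitals. All 3 are written 5′ to 3′ towards the gene.
Stat3: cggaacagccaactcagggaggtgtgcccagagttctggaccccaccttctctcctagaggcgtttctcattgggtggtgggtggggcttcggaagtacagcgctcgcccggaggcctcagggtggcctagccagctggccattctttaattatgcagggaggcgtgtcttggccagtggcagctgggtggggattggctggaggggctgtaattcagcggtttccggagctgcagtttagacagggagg
Socs3: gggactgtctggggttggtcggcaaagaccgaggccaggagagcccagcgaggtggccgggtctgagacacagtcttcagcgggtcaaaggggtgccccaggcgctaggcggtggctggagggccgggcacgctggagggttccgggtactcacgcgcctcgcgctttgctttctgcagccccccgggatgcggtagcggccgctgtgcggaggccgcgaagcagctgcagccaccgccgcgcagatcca
Cish: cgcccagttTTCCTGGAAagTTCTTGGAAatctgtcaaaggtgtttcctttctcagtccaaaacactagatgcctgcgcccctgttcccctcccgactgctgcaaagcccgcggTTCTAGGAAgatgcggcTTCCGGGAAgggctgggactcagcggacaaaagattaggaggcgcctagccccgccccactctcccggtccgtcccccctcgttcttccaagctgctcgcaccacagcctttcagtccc
A match is a description of the letters and not a binding site. The lack of one in Stat3 and Socs3 says only that these letters are not in this window. The annotated starts were used as given and not checked, so a window may lie within a gene and miss its promoter. Cish itself, called present on all arrays, had changes of 0.52 and 0.77 with an SE of 1.45, which were -0.04 and 1.32 without CCl4 replicate 3.

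The rest of the pathway was read from lists of ligands, kinases, inhibitors and targets, and no gene of these lists was called. Among the ligands, Il6, Il11, Lif, Osm and Lep were called present on no array, so most of the cytokines that act on these receptors had no present call in whole liver. A gene without a present call may still be expressed. Separately from the arrays, the study reports that rottlerin lowered Il6 mRNA in fibrotic rats. Of the 3 ligands called present on at least 3 arrays, Clcf1, a ligand of the CNTF receptor, had the largest changes, -0.46 and 0.41 for CCl4 minus vehicle and CCl4+Rot minus CCl4. They turned to 0.46 and -0.51 without CCl4 replicate 3.

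Among the other JAKs and STATs, 6 of 7 measured genes had present calls on 3 or more arrays. Their median change was 0.28 between CCl4 and vehicle and -0.03 between CCl4+Rot and CCl4, beside 0.04 and 0.01 over the 9812 genes detected in the same way, and it was 0.10 and 0.08 without CCl4 replicate 3. Jak3, the kinase of lymphocyte cytokine receptors, had the largest change in both. Its log2 signal was 6.85, 6.03 and 6.49 in the vehicle rats, 7.29, 7.67 and 8.11 in the CCl4 rats, and 6.99, 6.37 and 7.03 in the CCl4+Rot rats. As for Stat3, all CCl4 rats lay above all others. The changes were 1.23 (SE 0.318, adjusted p = 0.248, limma) and -0.89 (adjusted p = 0.731), and 1.02 and -0.68 without CCl4 replicate 3. Unlike Stat3, Jak3 was called present on only 5 arrays, 1 vehicle, 2 CCl4 and 2 CCl4+Rot. Stat2, called present on all 9 arrays, went the other way. All its CCl4 rats lay below all others, with changes of -0.84 and 0.67.

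Of the 14 inhibitors so detected, 7 were higher and 7 lower in CCl4 than in vehicle, with a median of -0.00, and 9 were higher and 5 lower in CCl4+Rot than in CCl4, with a median of 0.09. Socs2, a feedback inhibitor best known from growth hormone signalling, had the largest changes, -0.71 and 1.66, with an SE of 0.908 and overlapping groups. Its CCl4 rats alone ran from 6.03 to 9.33.

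STAT3 target genes had, as a list, a higher median change between CCl4 and vehicle than all genes. The study looked at Stat3 and its targets on these same arrays, so this list is no independent evidence. Of 12 genes detected on at least 3 arrays, 8 were higher and 4 lower in CCl4 than in vehicle (median 0.41, beside 0.04 over all genes so detected), and 5 were higher and 7 lower in CCl4+Rot than in CCl4 (median -0.16, beside 0.01, and -0.25 without CCl4 replicate 3). Timp1, an inhibitor of matrix metalloproteinases, had the largest change between CCl4 and vehicle. Its log2 signal was 8.71, 8.24 and 8.50 in the vehicle rats, 10.17, 10.09 and 9.98 in the CCl4 rats, and 9.54, 9.39 and 10.01 in the CCl4+Rot rats. Both treated groups lay above all vehicle rats, by 1.60 (SE 0.217, adjusted p = 0.156, limma) and by 1.16 (adjusted p = 0.191), and overlapped each other.

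Junb, an AP-1 transcription factor gene, had the largest change between CCl4+Rot and CCl4. Its log2 signal was 9.00, 9.42 and 9.50 in the vehicle rats, 10.38, 9.00 and 9.62 in the CCl4 rats, and 8.68, 8.74 and 8.85 in the CCl4+Rot rats. The CCl4+Rot rats lay below all 6 others, with a change of -0.91 from CCl4 (SE 0.341, adjusted p = 0.747, limma) and of -0.55 from vehicle (adjusted p = 0.786), while CCl4 and vehicle overlapped. Its pattern was thus not that of Stat3, and the list held genes of several patterns.

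The acute phase genes, the classical hepatic output of the pathway, were mostly among the brightest of the table. Over 10 genes, the median change was -0.07 between CCl4 and vehicle and 0.09 between CCl4+Rot and CCl4, and it was 0.06 and -0.02 without CCl4 replicate 3. All but Lbp had group means between 14.13 and 15.42, close to the highest log2 signal on any array (15.62), and whether the signal was compressed there was not tested. Lbp, which encodes the lipopolysaccharide-binding protein, had the largest change between CCl4 and vehicle. Its log2 signal was 10.93, 10.63 and 10.08 in the vehicle rats, 11.61, 12.66 and 12.35 in the CCl4 rats, and 12.17, 11.29 and 12.70 in the CCl4+Rot rats. All treated rats lay above all vehicle rats, by 1.66 in CCl4 (SE 0.437, adjusted p = 0.249, limma) and 1.51 in CCl4+Rot (adjusted p = 0.383), with no clear order between the treated groups. Serpina3n, a protease inhibitor of the acute phase, had the largest change between CCl4+Rot and CCl4, and it was only 0.21.

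**Figure D4:**
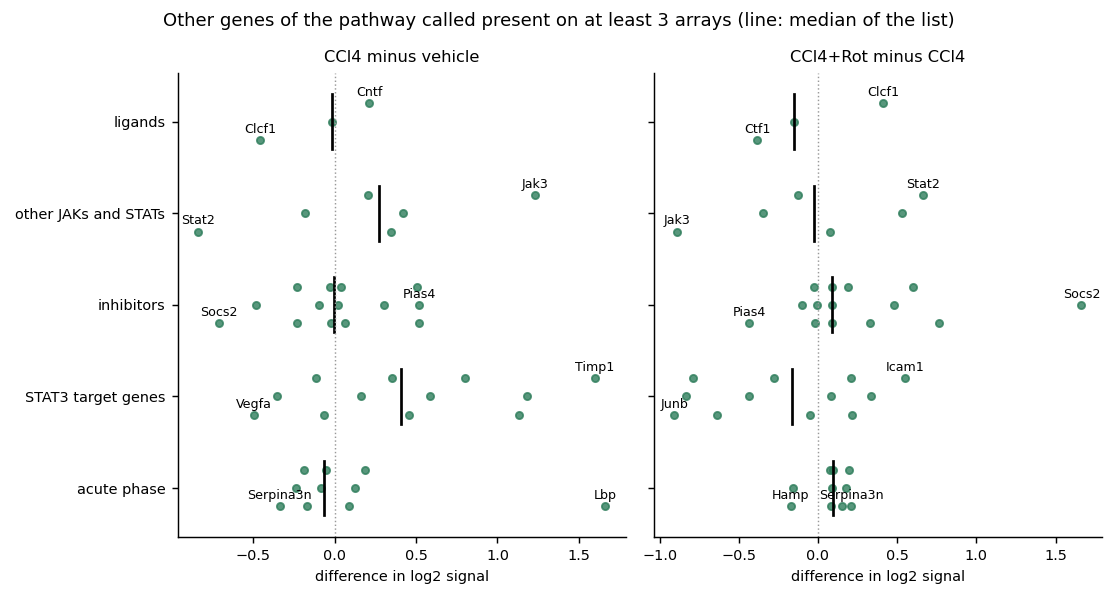
Differences in log2 signal of the other pathway genes called present on at least 3 arrays, by list, for CCl4 minus vehicle (left) and CCl4+Rot minus CCl4 (right); each point is 1 gene, the black line is the median of the list, and the lowest and highest gene of each list are named. The medians lie between -0.07 and 0.41 on the left and between -0.16 and 0.09 on the right, with Lbp (1.66), Timp1 (1.60) and Jak3 (1.23) farthest to the right in the first panel.

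Genes whose signal followed a member most closely over the 9 arrays were found by Pearson correlation among genes called present on all arrays, as a description. For Stat3 (1371781_at), 7058 genes were searched, and the highest were Lsm4 (r = 0.97), Bcl3 (0.97), Tax1bp3 (0.96), Man1b1 (0.96) and Polr3g (0.96). Within groups, after each group's mean was taken off, r was between 0.80 and 0.93 for these 5. Bcl3, an IκB family protein and itself on the list of STAT3 targets, had a log2 signal of 8.38, 8.23 and 8.28 in the vehicle rats, 9.54, 8.99 and 9.77 in the CCl4 rats, and 8.44, 8.73 and 9.21 in the CCl4+Rot rats. Its rats thus lay in much the same order as for Stat3. The changes were 1.13 (SE 0.271, adjusted p = 0.231, limma), -0.64 (adjusted p = 0.750) and 0.49 (adjusted p = 0.734). The first 2 were 0.97 and -0.47 without CCl4 replicate 3. For Socs3, the highest of 7059 genes were Osgepl1 (0.93), Cbx5 (0.92), Nup43 (0.90), Sfmbt1 (0.89) and Net1 (0.88). All points share the array scaling and the group means, and these genes were picked as the highest of all searched. CCl4 replicate 3 was kept in, and r without it was not computed for these genes.

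Marker genes of some other cell types moved with the groups and those of others did not, and both are given beside these results. For stellate cells and myofibroblasts, the matrix-producing cells of the fibrotic liver, all 12 of 12 markers were higher in CCl4 than in vehicle (median 0.89), and the log2 of their summed signal was 13.40 to 14.05 in the vehicle rats, 14.45 to 15.27 in the CCl4 rats, and 15.03 to 15.37 in the CCl4+Rot rats. Unlike Stat3, this sum was not lower in CCl4+Rot than in CCl4. For macrophages, 6 of 8 markers were higher in CCl4, and the sum was 14.25 to 14.70, 14.67 to 14.98 and 15.00 to 15.20 in the 3 groups. Of 5 neutrophil genes measured, 2 (S100a8 and S100a9) were called present on at least 3 arrays, both were higher in every CCl4+Rot rat than in every CCl4 rat, and Camp and Cxcr2 had no present call. The neutrophil sum was 7.57 to 10.11, 9.04 to 9.89 and 10.24 to 11.01. The sums overlapped between all groups for T and NK cells (8.65 to 9.21, 8.21 to 9.49 and 9.00 to 9.37), and for endothelial cells they were 13.21 to 13.39, 12.83 to 13.28 and 13.24 to 13.38.

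For cholangiocytes, 5 of 5 detected markers were higher in CCl4 than in vehicle and 4 of 5 lower in CCl4+Rot than in CCl4. Their sum was 10.20 to 10.26 in the vehicle rats, 11.59 to 12.46 in the CCl4 rats, and 10.51 to 11.38 in the CCl4+Rot rats, the same order of groups as for Stat3. This sum rested on Spp1, which other liver cells also express (changes of 5.00 and -2.09), whereas Krt19, the defining keratin, had changes of 0.20 and -0.19 that turned to -0.10 and 0.12 without CCl4 replicate 3, and Krt7 was called present on no array. For hepatocytes, 8 of 9 markers were lower in CCl4 than in vehicle (median -0.22, and -0.05 without CCl4 replicate 3), as was Il6r (-0.78, and -0.67 without it). The part of any of these cell types in the changes of Stat3 or Il6r was not tested.

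**Figure D5:**
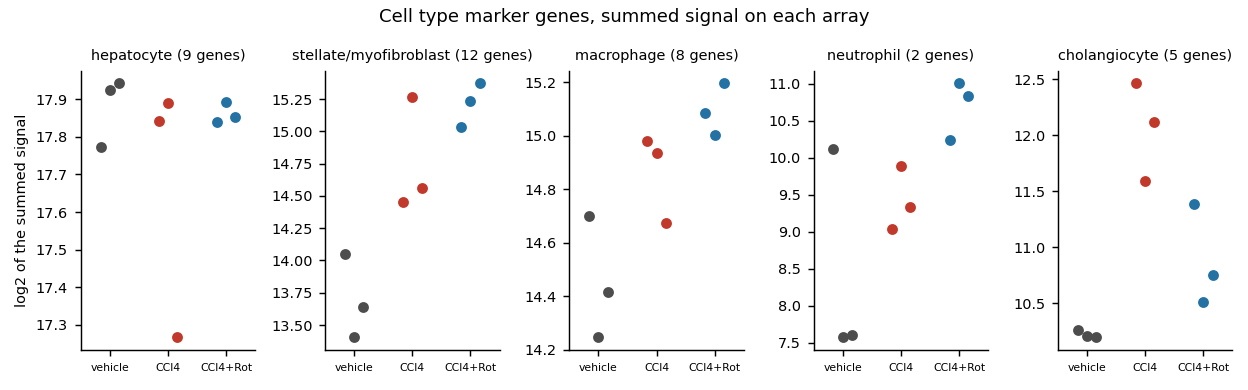
Log2 of the summed signal of cell type marker genes on each array, by group; each point is 1 rat, and the title of each panel gives the number of marker genes summed. Macrophage markers are highest in CCl4+Rot (15.00 to 15.20), stellate cell markers overlap between CCl4 and CCl4+Rot (14.45 to 15.27 and 15.03 to 15.37), cholangiocyte markers are highest in CCl4 (11.59 to 12.46), and CCl4 replicate 3 has the lowest hepatocyte sum (17.27).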

How the data were processed

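Liver RNA was biotin-labelled, and 1 array was run per rat. For every probe set and array, the table that the authors deposited gives a log2 signal beside a present, marginal or absent call. The submitters' processing notes name MAS5 and affy without a version, and the genome build is not given in the sources used here. The antilogs have a trimmed mean near 500 on every array (2% trimmed at each end), so arrays had been scaled to a common mean. The number of arrays limits the precision.

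The values were used as deposited, with 57 control probe sets left out of 31099. limma 3.58.1 (R 4.3.3) was run on the remaining 31042, with 3 group means over all 9 arrays and Benjamini-Hochberg adjustment over all probe sets. The methods give the 1.5-fold threshold and name no test for the arrays. The fit was also run on simulated data, and the outcome is not reported here. Replicates are single rats, numbered as in the sample titles.

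A gene is read by its brightest single-gene probe set. All members are named, and in each pathway list the gene with the largest change between CCl4 and vehicle and between CCl4+Rot and CCl4 among genes present on at least 3 arrays, plus the 5 genes most like Stat3 and Socs3. Bcl3 was named as one of the genes most like Stat3, and Cish for its motif matches. Stat2, Spp1, Krt19, S100a8 and S100a9 were named after their values were seen. The members and lists were chosen with earlier results of these data known. Il27, Il31ra, Socs4, Fos, A2m and Kng1 had no row of their own and were not analysed here. A list of further receptors is not reported here. Alternatives covered normalization, scaling, low values, the test, probe sets, the replicate block, array weights and single arrays.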

Additional observations from a re-analysis of the deposited data

How the results depend on the processing

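No member was called in the fit as reported, and 22 alternatives changed this only in 2 of them. Trend and robust estimation called 2 genes between CCl4 and vehicle (Stat3 and Il6r). With each array left out as well, an alternative chosen after seeing the data, it called 0 to 2: Stat3 without any 1 of the CCl4 or CCl4+Rot arrays, Il6r without vehicle replicate 3 or CCl4 replicate 1 or 2, and neither without vehicle replicate 4 or 5. The adjusted p then ran from 0.0201 to 0.114 for Stat3 and from 0.0414 to 0.197 for Il6r (limma). The methods' t-test, unadjusted, took 2 genes by their brightest probe set between CCl4 and vehicle and 1 between CCl4+Rot and vehicle, and none after Benjamini-Hochberg adjustment. By the dimmer Stat3 probe set it also took Stat3 between CCl4+Rot and CCl4. The animal numbers are not said to pair the rats. With them as a replicate block (consensus correlation -0.0327), 0 members were called in each comparison, and 0, 1 and 8 of all probe sets, as without it. Over all probe sets, the alternatives called 0 to 348 between CCl4 and vehicle (0 as reported), 0 to 2 between CCl4+Rot and CCl4 (1) and 0 to 241 between CCl4+Rot and vehicle (8), the unadjusted t-test 1774, 851 and 2126.

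Of 591 recomputed values of single members, 565 kept direction and call, 5 became calls and 21 reversed, 10 of these with 1 array left out. All of these were small changes. With arrays centred on the median of all probe sets, CCl4+Rot minus vehicle became -0.101 for Il6st, -0.0489 for Jak1 and -0.0896 for Tyk2, and, centred on the probe sets present on all arrays, -0.0271 for Il6st and -0.0159 for Tyk2. With probe sets averaged, Lepr became -0.0117 in that comparison. With array weights, CCl4 minus vehicle became 0.194 for Jak2 and 0.0444 for Tyk2, CCl4+Rot minus CCl4 -0.0651 for Tyk2, and CCl4+Rot minus vehicle -0.0207 for Tyk2 and 0.0466 for Socs3. With each array left out, CCl4+Rot minus vehicle ran from -0.134 to 0.142 for Il6st, -0.158 to 0.635 for Lepr, -0.0936 to 0.102 for Tyk2 and -0.279 to 0.235 for Socs3, and CCl4 minus vehicle from -0.211 to 0.0134 for Tyk2 and -0.346 to 0.224 for Jak2. On their brightest probe sets, Stat3 and Il6r kept their directions under every alternative run. On the dimmer one, CCl4+Rot minus vehicle was -0.0301 for Stat3. The cause of these shifts was not tested. Signals near background (Lifr, most Lepr probe sets, Socs3) limit what can be read from them.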
